A study of Homo sapiens with 18 samples.

Results

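The ISG15 conjugation system was followed across all 18 libraries as 6 genes taken by name, of 58050 gene identifiers in the deposited table: the modifier ISG15, its activating enzyme UBA7, its conjugating enzyme UBE2L6, the ligases HERC5 and HERC6, and the protease USP18. All 6 had reads in every library and all 6 passed the filter on low values, which left 15228 genes to test. The cells were KNS-42, a human glioma line made to express the nuclease Cas9. Each cell line received, by lentivirus, a guide RNA called 395, directed at the endogenous gene of the RNA helicase DDX3X, or a negative control guide to AAVS1, a locus in common use as a neutral cutting site. The 3 cell lines were these: DDX3Yoe cells overexpressed a codon-optimized DDX3Y, the Y-linked paralog of DDX3X, DDX3Xoe cells overexpressed a codon-optimized DDX3X, and parental cells carried neither. RNA was taken on day 7 after transduction from 3 replicates of each of the 6 combinations of cell line and guide, all kept in medium with puromycin, and the 3′ ends of polyadenylated transcripts were sequenced. The labels do not say whether replicates were separate cultures or whether each overexpressing line was a single clone, so every p-value here reflects the spread among these libraries, which may be technical.

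ISG15 is a small ubiquitin-like protein that cells make in large amounts after exposure to interferon, the secreted signal of antiviral defence. UBA7 activates it, UBE2L6 carries it, and HERC5, the main ISG15 ligase of human cells, joins it to newly made proteins; HERC6 is the main ISG15 ligase in the mouse, with a less settled role in human cells. USP18 takes ISG15 off its targets and, apart from that activity, sits on the interferon receptor subunit IFNAR2 and dampens signalling, and free human ISG15 is known to protect USP18 from degradation. All 6 genes are known interferon-stimulated genes, whose promoters often hold an interferon-stimulated response element, the site bound by the interferon-activated complex called ISGF3.

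The genes lie at 5 places in the genome (GRCh38, GENCODE 29). ISG15 (ENSG00000187608) is on chromosome 1 at 1001138 to 1014540 on the plus strand, and 2 antisense genes overlap that span, AL645608.1 and AL645608.3. Their own values averaged at most 0.111 normalised reads over the 18 libraries, and without a stated strand setting their reads cannot be told apart from those of ISG15. UBA7 (ENSG00000182179) is on chromosome 3 at 49805207 to 49813946 on the minus strand. UBE2L6 (ENSG00000156587) is on chromosome 11 at 57551656 to 57568284 on the minus strand. HERC6 (ENSG00000138642, 88378739 to 88443111) and HERC5 (ENSG00000138646, 88457117 to 88506163) are neighbours on the plus strand of chromosome 4, with 14006 bases between the end of HERC6 and the start of HERC5. USP18 (ENSG00000184979) is on chromosome 22 at 18149899 to 18177397 on the plus strand, and its close copy USP41 had 0 reads in all 18 libraries.

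RefSeq promoter windows (GRCh38.p14, 250 bases before to 50 bases after the annotated start, 300 bases, plus strand as printed) were at hand for 4 of the 6 genes. They were searched on either strand for GAAA, any 2 bases, then GAAAC, a plain form of the interferon-stimulated response element. The windows of ISG15, HERC5 and HERC6 are shown because ISG15 and HERC5 hold the motif and the paralogous neighbour HERC6 does not in this window; capitals mark the matches. ISG15 (chr1:1013247-1013546) holds 2 matches on the plus strand that overlap each other, 97 to 107 and 103 to 113 bases before the start. HERC5 (chr4:88456869-88457168) holds 2 separate matches on the minus strand, printed here as their reverse complement, 65 to 75 and 116 to 126 bases before the start. HERC6 (chr4:88378602-88378901) holds none. The RefSeq starts of ISG15 and HERC6 lie inside the longer spans that GENCODE gives these genes. The window of HERC6 thus reaches less far before its GENCODE start than that of HERC5 does.
ISG15: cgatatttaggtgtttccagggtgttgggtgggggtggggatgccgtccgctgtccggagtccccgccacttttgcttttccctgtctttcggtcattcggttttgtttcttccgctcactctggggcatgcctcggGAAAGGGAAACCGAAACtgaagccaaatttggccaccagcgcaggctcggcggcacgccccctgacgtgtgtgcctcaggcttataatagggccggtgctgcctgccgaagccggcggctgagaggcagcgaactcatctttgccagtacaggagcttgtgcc
HERC5: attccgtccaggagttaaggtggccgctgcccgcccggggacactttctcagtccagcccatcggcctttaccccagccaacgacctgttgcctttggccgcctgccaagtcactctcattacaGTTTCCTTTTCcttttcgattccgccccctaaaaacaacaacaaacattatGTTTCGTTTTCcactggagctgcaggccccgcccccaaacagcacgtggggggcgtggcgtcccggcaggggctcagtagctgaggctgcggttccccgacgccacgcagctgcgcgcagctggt
HERC6: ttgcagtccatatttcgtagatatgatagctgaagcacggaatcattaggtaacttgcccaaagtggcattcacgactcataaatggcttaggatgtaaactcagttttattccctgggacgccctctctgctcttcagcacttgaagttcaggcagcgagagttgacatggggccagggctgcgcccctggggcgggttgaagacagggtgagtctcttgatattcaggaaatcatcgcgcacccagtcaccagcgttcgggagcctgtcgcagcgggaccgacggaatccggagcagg
Of 35116 promoter windows of this length, 279 (0.795%) held at least 1 match and 16 (0.0456%) held at least 2. The windows of UBE2L6 held none, and UBA7 and USP18 are named only. A match describes these letters and is not a measured binding site.

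Reads per library ranged from 5.67 M to 13.2 M, with a median of 8.85 M (M, 1e6). The level used throughout is the authors' normalised read count, a gene's reads divided by 1 size factor per library; a log2 fold change is the difference between group means of log2(level + 1), tested with limma. DDX3X itself, the guide's target, had 878, 739 and 653 normalised reads (replicates 1, 2 and 3) in DDX3Yoe cells with guide 395, against 1379, 1557 and 1439 with AAVS1. In parental cells it had 861, 844 and 953 with guide 395, against 1780.5, 1923 and 1729 with AAVS1. In DDX3Xoe cells it had 1416, 716 and 578 with guide 395, against 668, 1504 and 1162 with AAVS1. Replicates 2 and 3 of DDX3Xoe cells thus followed the other lines, and replicate 1 ran the other way in its pair, so the 2 libraries labelled DDX3Xoe replicate 1 go against their guide labels and the comparisons with DDX3Xoe cells are also given without them. The log2 fold change of DDX3X was -0.95 in DDX3Yoe cells, -0.33 in DDX3Xoe cells (-1.04 without both replicate 1 libraries) and -1.03 in parental cells. It did not pass limma's adjusted threshold of 0.05 in parental cells (adjusted p = 0.0800) but did with DESeq2 (adjusted p = 0.0274). DDX3Y had 0 reads in every library, so the codon-optimized transgenes were not seen as DDX3Y in this table. Nor was a transgene seen as DDX3X. The log2 fold change of DDX3X in DDX3Xoe against parental cells was -0.78 with AAVS1 and -0.08 with guide 395, neither called by limma. Overexpression in either line is therefore taken from the labels. Of 8 glial markers 6 had reads (OLIG2 and S100B had 0) and their summed level was 40786 to 77293 normalised reads per library, against 0.671 to 24.3 for 8 immune markers and 5.72 to 78.8 for 4 endothelial markers. In such bulk RNA, a change in how many cells express a gene and a change in RNA per cell cannot be told apart.

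Across the 6 groups, ISG15, UBA7, UBE2L6, HERC5 and USP18 had their highest mean in parental cells with guide 395, and HERC6 had its highest in DDX3Yoe cells with guide 395. None of the 6 genes passed limma's adjusted threshold in any of the 12 comparisons made. HERC5 came nearest, in parental cells with guide 395 against AAVS1, where its adjusted p was 0.0563. Libraries of 1 group differed widely, and the values of each gene are therefore given library by library.

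ISG15, the modifier, had 4044, 4920.0 and 2579.5 normalised reads (replicates 1, 2 and 3) in DDX3Yoe cells with guide 395, against 2936, 343 and 2444 with AAVS1. In DDX3Xoe cells it had 1279, 5060.0 and 3109 with guide 395, against 658, 4745 and 1838 with AAVS1. In parental cells it had 8131, 5489 and 7161 with guide 395, against 2017, 2349 and 3934 with AAVS1. All 3 parental libraries with guide 395 lay above all the other 15 libraries, whereas guides overlapped in the overexpressing lines. ISG15 averaged 6927 ± 1336 in parental cells with guide 395 and 2767 ± 1024 with AAVS1 (SD, n = 3 each). The highest library exceeded the lowest, replicate 2 of DDX3Yoe cells with AAVS1, by 23.7 times.

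UBA7, the activating enzyme, had 405, 810.1 and 362 normalised reads in DDX3Yoe cells with guide 395, against 244, 107 and 339.6 with AAVS1. In DDX3Xoe cells it had 153, 820.2 and 273 with guide 395, against 73.9, 539 and 252 with AAVS1. In parental cells it had 658, 602 and 636 with guide 395, against 200.1, 272 and 466 with AAVS1. Guides were separate in DDX3Yoe and in parental cells and overlapped in DDX3Xoe cells. The parental libraries with guide 395 were the closest to each other of any group, at 632 ± 28.0 against 313 ± 138 with AAVS1 (SD, n = 3 each), but the single highest library was replicate 2 of DDX3Xoe cells with guide 395.

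UBE2L6, the conjugating enzyme, had 1412, 1915 and 1009.9 normalised reads in DDX3Yoe cells with guide 395, against 950.3, 364 and 1286 with AAVS1. DDX3Xoe cells had 433, 1490.4 and 1248 with guide 395, against 308, 1711 and 956 with AAVS1. Parental cells had 2699, 1933 and 2837 with guide 395, against 683, 997 and 1690.2 with AAVS1. As for ISG15, the 3 parental libraries with guide 395 were the highest of all 18. Its mean there was 2489.6 ± 487, against 1123 ± 515 with AAVS1 (SD, n = 3 each).

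HERC5, the main human ISG15 ligase, was covered by few reads, 7 to 333 per library. It had 66.9, 53.2 and 99.6 normalised reads in DDX3Yoe cells with guide 395, against 63.2, 9.03 and 64.1 with AAVS1. In DDX3Xoe cells it had 49.1, 111 and 63.2 with guide 395, against 12.8, 21.3 and 65.3 with AAVS1. In parental cells it had 293, 133 and 247 with guide 395, against 25.5, 9.92 and 77.0 with AAVS1. The 3 parental libraries with guide 395 again lay above all the others, at 224 ± 82.4 against 37.5 ± 35.1 with AAVS1 (SD, n = 3 each). Guides overlapped in the overexpressing lines.

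HERC6, the paralog beside it, had 2593, 1950.2 and 1071 normalised reads in DDX3Yoe cells with guide 395, against 1149, 311 and 1203 with AAVS1. DDX3Xoe cells had 414, 1378 and 1182 with guide 395, against 181, 2952 and 872 with AAVS1. Parental cells had 959, 1182 and 1845 with guide 395, against 440.4, 707 and 1294 with AAVS1. Guides overlapped in every line, and the highest library of all, replicate 2 of DDX3Xoe cells with AAVS1, was a control. The highest group mean was 1871 ± 764, in DDX3Yoe cells with guide 395, against 1329 ± 461 in parental cells with guide 395 (SD, n = 3 each).

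USP18, the protease, had 1722, 1179 and 781 normalised reads in DDX3Yoe cells with guide 395, against 871, 178 and 1024 with AAVS1. The values in DDX3Xoe cells were 372, 1025 and 981 with guide 395, against 29.6, 1560.3 and 785 with AAVS1. The values in parental cells were 253, 1522 and 2072 with guide 395, against 139.6, 434 and 1447 with AAVS1. Guides overlapped in every line, and the highest library exceeded the lowest by 70.1 times, the widest range of the 6 genes. Parental replicate 1 was low for USP18 under either guide although its guide 395 library was the highest of all for ISG15.

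In parental cells, guide 395 against AAVS1 asks how the system's genes differ after targeting of DDX3X where no replacement helicase is present. The log2 fold change of HERC5 was 2.92 ± 0.76 (SE; 95% interval 1.33 to 4.51), and it was higher by 11.1, 12.2 and 3.18 times in the same-numbered pairs 1, 2 and 3. Its adjusted p was 0.0563 with limma and 0.0772 with edgeR. It passed with DESeq2 on recovered reads (adjusted p = 0.00882) and with replicate number as a blocking term (adjusted p = 0.0161); the pairing check that bears on the block is given with the processing. It also passed with limma without replicate 3 of parental cells with AAVS1, at a log2 fold change of 3.65 (adjusted p = 0.0259). With 1 library left out in turn, its log2 fold change ranged from 2.23 to 3.65 and its limma adjusted p from 0.0259 to 0.259.

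The other 5 members had smaller estimates. ISG15 differed by 1.37 ± 0.72 on the log2 scale (SE; 95% interval -0.15 to 2.88; limma adjusted p = 0.353), with pairs at 4.03, 2.34 and 1.82 times. UBA7 differed by 1.10 ± 0.64 (interval -0.25 to 2.45; adjusted p = 0.403) and UBE2L6 by 1.23 ± 0.58 (interval 0.01 to 2.44; adjusted p = 0.291). The second ligase and the protease had wide intervals that include 0. HERC6 differed by 0.79 ± 0.76 (interval -0.81 to 2.40; adjusted p = 0.651) and USP18 by 1.06 ± 1.16 (interval -1.38 to 3.50; adjusted p = 0.695). With 1 library left out in turn, the log2 fold change ranged from 0.23 to 1.99 for USP18, 0.42 to 1.19 for HERC6, 0.83 to 1.43 for UBA7, 0.92 to 1.57 for UBE2L6 and 1.17 to 1.65 for ISG15. The lowest of each came without replicate 1 with AAVS1.

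Counted together, 0 of the 6 passed limma's adjusted threshold, which 1.78% of all tested genes passed in either direction. HERC5 and UBE2L6 had an unadjusted p under 0.05, which 16.9% of all genes had. With edgeR 0 of 6 passed (1.6% of all genes), with DESeq2 1 of 6 (5.98%) and with the block 1 of 6 (4.45%), in either case HERC5. For 4 of the 6, namely ISG15, UBA7, UBE2L6 and HERC5, every guide 395 library lay above every AAVS1 library, as it did for 10.7% of all genes. All 6 were higher in all 3 same-numbered pairs, as were 24.3% of all genes, and 5 of 6 had a log2 fold change of at least 1, as did 9.75%. The median log2 fold change was 1.16 over the 6 genes and 0.017 over all genes tested.

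**Figure D1:**
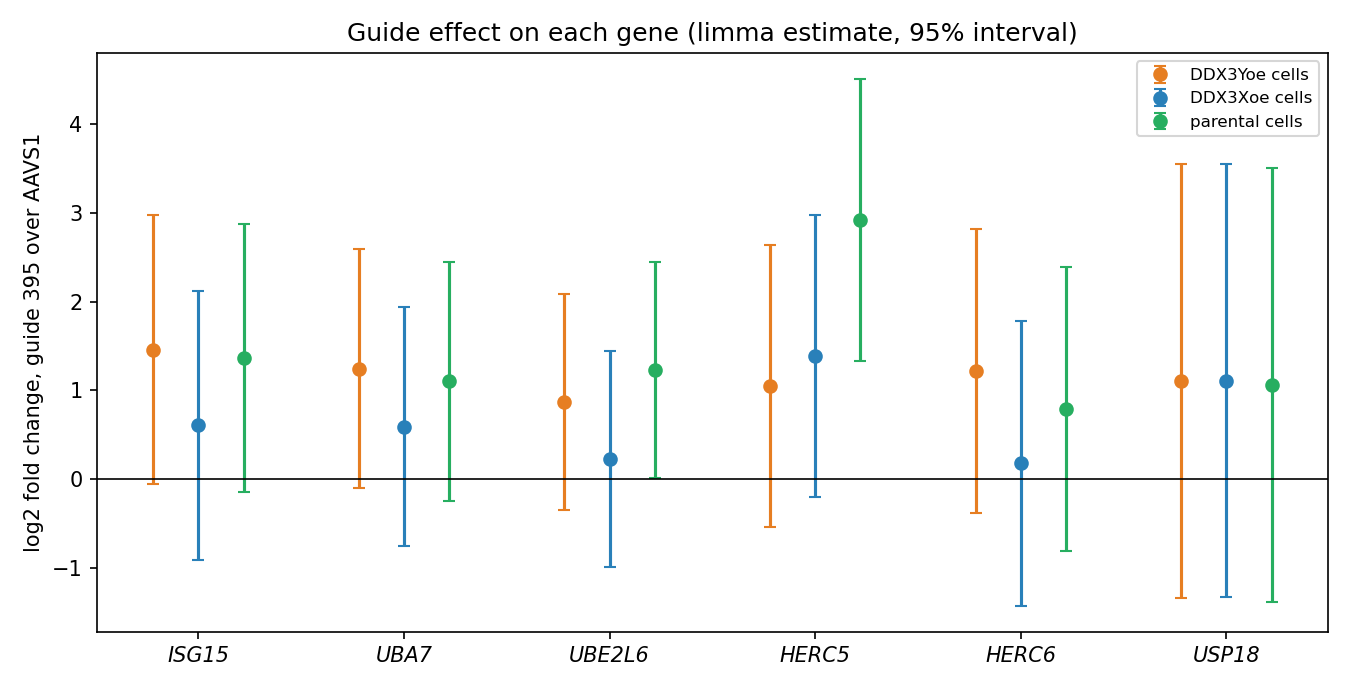
Log2 fold change of each gene, guide 395 over AAVS1, in DDX3Yoe (orange), DDX3Xoe (blue) and parental cells (green), from limma on log2(normalised reads + 1); bars are 95% intervals. The estimates are all above 0, although that of HERC6 in DDX3Xoe cells is -0.43 with edgeR, and the intervals of HERC5 and UBE2L6 in parental cells are the ones that do not cross 0.

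In DDX3Xoe cells, labelled as overexpressing DDX3X, the same comparison gave log2 fold changes of 0.60 for ISG15 (95% interval -0.91 to 2.12), 0.59 for UBA7 and 0.22 for UBE2L6. HERC5 had 1.38 (interval -0.21 to 2.97), HERC6 0.18 (-0.43 with edgeR) and USP18 1.11. None of the 6 passed limma's adjusted threshold and none had an unadjusted p under 0.05; among all genes the shares were 0% and 2.07%, and edgeR and DESeq2 also called 0 genes. For 0 of 6 did the guides separate upward (1.83% of all genes), and ISG15 and UBA7 were higher in all 3 pairs (8.14% of all genes). The median over the 6 was 0.59, against -0.016 over all genes. These values rest on single libraries. Without replicate 1 of DDX3Xoe cells with AAVS1, one of the 2 that go against their labels, the log2 fold changes were -0.12 for ISG15, -0.18 for UBA7, -0.46 for UBE2L6, -0.87 for HERC6 and -0.62 for USP18. Without both replicate 1 libraries, HERC6 was at -0.33 and USP18 at -0.14, and the other 4 stayed above 0. No direction is therefore given for the 5 in these cells.

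In DDX3Yoe cells, the log2 fold changes were 1.46 for ISG15 (interval -0.05 to 2.97), 1.24 for UBA7 (interval -0.10 to 2.59) and 0.87 for UBE2L6. HERC5 had 1.05 (interval -0.54 to 2.64), HERC6 1.22 and USP18 1.10. Again 0 of 6 passed limma's adjusted threshold or an unadjusted p under 0.05, with shares of 0% and 1% among all genes and 0 called by edgeR or DESeq2. The guides separated for UBA7 alone (3.8% of all genes), and ISG15, UBA7 and HERC5 were higher in all 3 pairs (11.4% of all genes). The median over the 6 was 1.16, against -0.0021 over all genes. Replicate 2 with AAVS1 was the lowest library of its group for all 6 genes, and its pair gave folds of 14.3 for ISG15, 7.50 for UBA7 and 6.59 for USP18. Without that library the log2 fold change was 0.47 for ISG15, 0.77 for UBA7, 0.34 for UBE2L6, 0.15 for HERC5, 0.58 for HERC6 and 0.30 for USP18.

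Whether the guide's effect differed between lines was tested directly. The effect in DDX3Yoe minus that in parental cells was 0.09 for ISG15 (-0.29 with edgeR), 0.14 for UBA7, -0.36 for UBE2L6, -1.87 for HERC5 (95% interval -4.12 to 0.38), 0.43 for HERC6 and 0.05 for USP18 (-0.086 with edgeR), on the log2 scale. The effect in DDX3Xoe minus that in parental cells was -0.76 for ISG15, -0.51 for UBA7, -1.0 for UBE2L6, -1.54 for HERC5 (interval -3.78 to 0.71), -0.62 for HERC6 and 0.05 for USP18 (-0.91 with edgeR). The effect in DDX3Yoe minus that in DDX3Xoe cells was -0.34 for HERC5 and lay between -0.004 and 1.04 for the others. Without both replicate 1 libraries labelled DDX3Xoe, DDX3Xoe minus parental was -0.94 for ISG15, -0.74 for UBA7, -1.13 for UBE2L6, -1.77 for HERC5, -1.12 for HERC6 and -1.20 for USP18. DDX3Yoe minus DDX3Xoe was then 1.03 for ISG15, 0.88 for UBA7, 0.78 for UBE2L6, -0.097 for HERC5, 1.55 for HERC6 and 1.25 for USP18. With limma 0 of 6 passed the adjusted threshold or an unadjusted p under 0.05 in any of the 3; edgeR and DESeq2 called 0 of the 6 as well. Among all genes, limma called 0%, 0.046% and 0% by adjusted p and 4.84%, 8.14% and 1.49% by unadjusted p, in the order of these sentences, edgeR 0%, 0.0394% and 0%, and DESeq2 0.0592%, 0.565% and 0%. The intervals are wide enough to hold a difference of several-fold either way for ISG15, HERC6 and USP18, so neither a difference nor its absence is shown.

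The lines were also set against each other under the same guide. With guide 395, all 3 libraries of DDX3Yoe cells lay below all 3 of parental cells for ISG15, UBE2L6 and HERC5, and so did all 3 of DDX3Xoe cells. The log2 fold changes of DDX3Yoe against parental cells were -0.88 for ISG15, -0.36 for UBA7, -0.81 for UBE2L6, -1.57 for HERC5 (limma adjusted p = 0.380), 0.46 for HERC6 and 0.33 for USP18. Those of DDX3Xoe against parental cells were -1.33 for ISG15 (adjusted p = 0.348), -0.96 for UBA7, -1.40 for UBE2L6 (adjusted p = 0.217), -1.58 for HERC5 (adjusted p = 0.286), -0.54 for HERC6 and -0.36 for USP18. The 3 separate genes compare with 14% of all genes for DDX3Yoe and 13.4% for DDX3Xoe cells, and the 2 comparisons share the parental libraries. Without both replicate 1 libraries labelled DDX3Xoe, DDX3Xoe against parental cells gave -0.79 for ISG15, -0.41 for UBA7, -0.85 for UBE2L6, -1.33 for HERC5, -0.0031 for HERC6 and 0.11 for USP18. With limma 0 of 6 passed the adjusted threshold in either (0.204% and 2% of all genes), and 0 and 1 of 6 (UBE2L6) had an unadjusted p under 0.05 (13.3% and 17.6% of all genes). DDX3Yoe against DDX3Xoe cells gave 0.45 for ISG15, 0.60 for UBA7, 0.59 for UBE2L6, 0.01 for HERC5, 1.00 for HERC6 and 0.69 for USP18, with 0 of 6 past either threshold (0% and 2.3% of all genes). These values, without both replicate 1 libraries labelled DDX3Xoe, were -0.09 for ISG15, 0.05 for UBA7, 0.04 for UBE2L6, -0.24 for HERC5, 0.46 for HERC6 and 0.22 for USP18.

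Among libraries labelled AAVS1, the lines overlapped for all 6 genes. DDX3Yoe against parental cells gave -0.97 for ISG15 and between -0.50 and 0.30 for the others. DDX3Xoe against parental cells gave -0.57 for ISG15 and between -0.44 and 0.07 for the others, but 0.16 for ISG15, 1.12 for HERC6, 1.31 for USP18 and values above 0 for the other 3 without both replicate 1 libraries labelled DDX3Xoe. DDX3Yoe against DDX3Xoe cells gave 0.70 for USP18 and between -0.41 and 0.35 for the others, but without those 2 libraries -1.03 for USP18, -1.13 for ISG15, -0.83 for UBA7, -0.74 for UBE2L6, -0.15 for HERC5 and -1.09 for HERC6. In these 3 comparisons limma called 0 of 6 by adjusted p (0% of all genes in each) and 0 of 6 by unadjusted p (2.64%, 0.985% and 0.893% of all genes, in the order of these sentences). The groups did not overlap upward for 4.98%, 1.55% and 2.02% of all genes and downward for 3.78%, 1.58% and 2.19%. In all 6 comparisons between lines, edgeR and DESeq2 called 0 of the 6 genes; over all genes they called 0.105% and 2.7% in DDX3Yoe against parental cells with guide 395, 1.51% and 5.28% in DDX3Xoe against parental cells with guide 395, and 0% in the others. A difference between lines with AAVS1 was not detectable at this spread.

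Ordered by mean level of ISG15, the groups ran parental with guide 395, DDX3Yoe with guide 395, DDX3Xoe with guide 395, parental with AAVS1, DDX3Xoe with AAVS1 and DDX3Yoe with AAVS1. The range of the group with the highest mean did not overlap the next for ISG15, UBE2L6 and HERC5, though narrowly for UBE2L6 (1933 against 1915). All other neighbours in the order, for all 6 genes, had overlapping ranges.

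The members also differed in how closely they kept step across libraries. Pearson's r of log2 levels over the 18 libraries was 0.949 for ISG15 and UBE2L6, 0.941 for UBA7 and UBE2L6 and 0.922 for ISG15 and UBA7. HERC6 and USP18 had 0.909, whereas HERC5 had 0.521 with its genomic neighbour HERC6, the lowest of the 15 pairs, and 0.533 with USP18. With group means removed, r was highest for UBE2L6 and HERC6 (0.940), followed by 0.937 for ISG15 and UBE2L6 and 0.936 for UBA7 and UBE2L6. It was then 0.917 for HERC6 and USP18, 0.902 for ISG15 and HERC6 and 0.891 for ISG15 and UBA7, and lowest for HERC5 with USP18 (0.490) and HERC6 (0.492). These coefficients are descriptions over libraries, where both genes of a pair share each library and its depth, with no test.

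**Figure D2:**
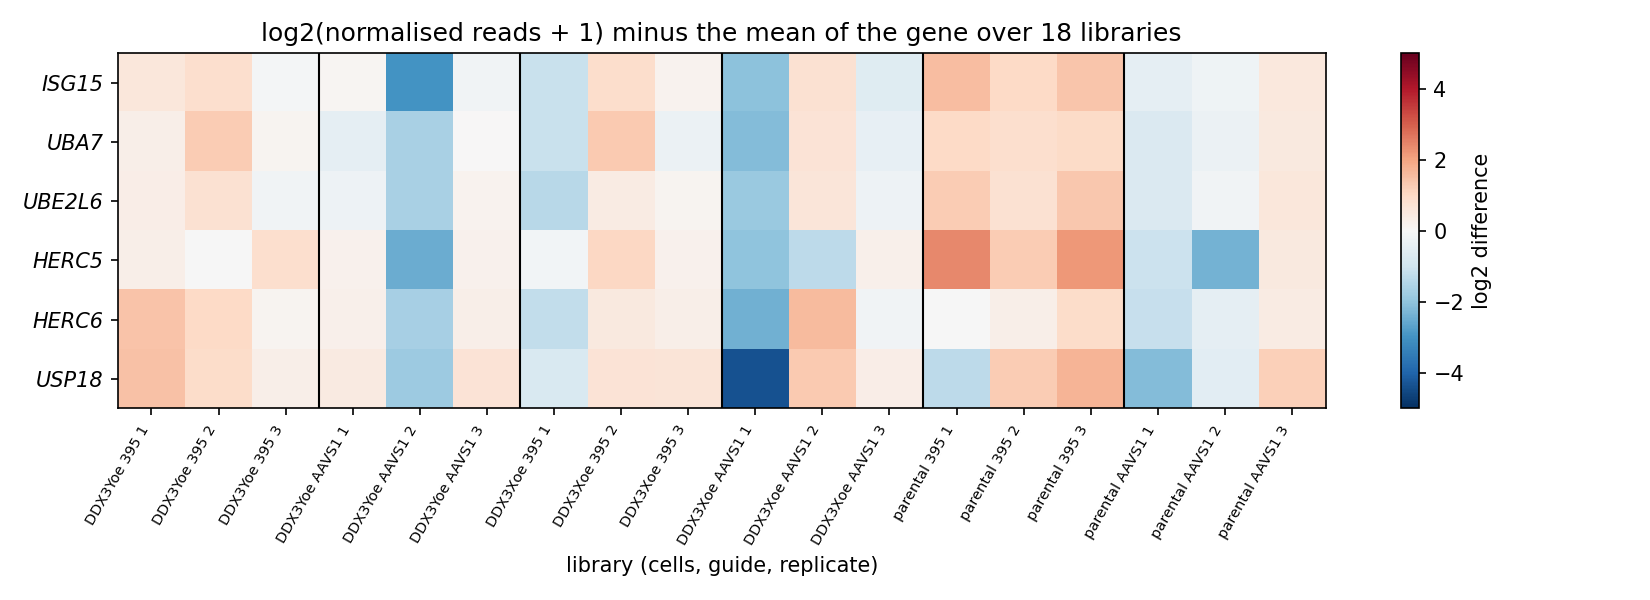
Log2 level of each gene (rows) in each of the 18 libraries (columns), relative to the gene's mean over all libraries; red is above and blue below that mean. Replicate 2 of DDX3Yoe cells and replicate 1 of DDX3Xoe cells, each with AAVS1, are low for all 6 genes, and the parental libraries with guide 395 are high for ISG15, UBE2L6 and HERC5.

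Among all 15228 tested genes, those whose pattern was most like each member were found by Pearson's r over the 18 libraries. ISG15 was closest to OAS3 (0.985), OAS1 (0.984), OAS2 (0.972), RSAD2 (0.949) and UBE2L6. UBA7 was closest to LGALS3BP (0.946), C19orf66 (0.944), UBE2L6, XAF1 (0.940) and OAS2 (0.925). UBE2L6 was closest to C19orf66 (0.979), TMEM229B (0.951), OAS1 (0.950), ISG15 and IFI35 (0.947). HERC5 had THEMIS2 (0.938), ISG20 (0.937), PARP12 (0.926), CMPK2 (0.925) and LAMP3 (0.925). For HERC6 they were PARP10 (0.963), LAP3 (0.958), OGFR (0.922), RARRES3 (0.916) and IFI16 (0.915), with USP18 at rank 6 and HERC5 at rank 1414. For USP18 they were TRIM14 (0.964), IFI16 (0.960), SHOX2 (0.934), ANKIB1 (0.934) and GBP1 (0.928), with HERC6 at rank 12. The 5 nearest genes of HERC5 and of HERC6 had none in common, and neither did those of ISG15 and USP18, so such short lists say little about a pair.

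Levels within a library can be set against its own ISG15 reads. Per 100 ISG15 reads, UBE2L6 had a median of 39.0 over the 18 libraries and a range of 29.5 to 106, UBA7 a median of 11.46 and a range of 8.09 to 31.2, and HERC6 a median of 35.5 and a range of 11.8 to 90.6. HERC5 had a median of 2.18, with the lowest ratio (0.422) in replicate 2 of parental cells with AAVS1. USP18 had a median of 29.4 but fell into separate ranges. These are ratios of 3′ read counts, not of molecules, and are compared between libraries for 1 gene at a time. All but the HERC5 ratio were highest in replicate 2 of DDX3Yoe cells with AAVS1, whose ISG15 level was the lowest of all.

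Per 100 ISG15 reads, USP18 had 3.11 in replicate 1 of parental cells with guide 395, 6.92 in replicate 1 of parental cells with AAVS1 and 4.49 in replicate 1 of DDX3Xoe cells with AAVS1. The other 15 libraries had 18.5 to 51.9. Against HERC6, USP18 had 0.163 to 0.317 reads per HERC6 read in those 3 libraries and 0.528 to 1.29 in the other 15. The same 3 libraries had 205, 248 and 381 normalised reads of FABP7, a fatty-acid-binding protein of brain and one of the glial markers, against 4.01 to 32.9 in the rest. They also held 83, 23 and 3 reads of IFNB1, the gene of interferon beta, against at most 2 in the rest, where 13 of 15 had 0. FABP7 and IFNB1 were picked out of their lists after the values were seen, and their part in the USP18 ratio was not tested. The summed glial markers overlapped, at 44783 to 77293 in the 3 libraries and 40786 to 74989.9 in the rest. Taken singly, the glial markers with reads other than FABP7 overlapped too, and not all leaned the same way. SOX2 had 8999 to 16149 in the 3 libraries against 12877 to 28885 in the rest, and NES 151 to 745 against 214 to 1183.5. VIM had 25514 to 50680 against 11361 to 34565, and GFAP and CD44 lay within the range of the rest. Without these 3 libraries, an alternative chosen after seeing the data, the parental log2 fold changes for guide 395 were 1.04 for ISG15, 0.80 for UBA7, 0.85 for UBE2L6, 2.64 for HERC5 (limma adjusted p = 0.170), 0.63 for HERC6 and 1.16 for USP18.

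Among the genes that act before the system, IRF7, a transcription factor that interferon itself induces and that drives further interferon genes, rose in parental cells with guide 395. It had 4289, 2802 and 3742 normalised reads with guide 395, against 690.2, 454 and 1437 with AAVS1, and the guides did not overlap. The log2 fold change was 2.21 (limma adjusted p = 0.0270; edgeR 0.0394; DESeq2 0.00154; replicate block 0.0127). This call rests on all but 1 of the 6 parental libraries: the limma adjusted p was 0.0133 without replicate 3 with AAVS1 and 0.0544 to 0.148 without any other single library. With guide 395 it had 1008, 1379 and 1076 in DDX3Yoe cells and 446, 1187 and 713 in DDX3Xoe cells, below every parental library with that guide. It fell by 2.30 on the log2 scale in DDX3Xoe against parental cells (limma adjusted p = 0.0210), and DDX3Yoe against parental cells was at -1.64 (limma adjusted p = 0.132; DESeq2 0.0286). Without both replicate 1 libraries labelled DDX3Xoe the value for DDX3Xoe against parental cells was -1.95 (limma adjusted p = 0.0645), and the call was also lost without replicate 1 or 3 of DDX3Xoe cells or replicate 1 or 3 of parental cells, each with guide 395 (adjusted p = 0.0979, 0.0518, 0.105 and 0.0739). IRF7 was the 1 gene of 12 in the list of interferon receptor and ISGF3 genes that passed with limma in parental cells (1.78% of all genes). Of the 12, 10 had a log2 fold change above 0 (51.1% of all genes), with a median of 0.37.

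Of 9 interferon genes, 5 had a read and only IFNL1, which encodes an interferon lambda, passed the filter on low values. IFNL1 had 81.8, 9.84 and 41.7 normalised reads in parental cells with guide 395, against 5.37, 0 and 6.69 with AAVS1. With guide 395 it had 4.85, 1.09 and 3.51 in DDX3Yoe cells and 1.14, 0 and 0.878 in DDX3Xoe cells. All the parental libraries with guide 395 were higher than those of either overexpressing line, although 1 of them had few reads. The log2 fold change of guide 395 against AAVS1 in parental cells was 3.20 (limma adjusted p = 0.134; DESeq2 0.0395). It fell by 4.41 on the log2 scale in DDX3Xoe against parental cells with guide 395 (limma adjusted p = 0.0445; edgeR 0.0470), and DDX3Yoe against parental cells was at -3.15 (limma adjusted p = 0.212; DESeq2 0.0333). Without both replicate 1 libraries labelled DDX3Xoe the value was -4.62 (limma adjusted p = 0.0687), and of the 6 libraries compared, only replicate 2 of parental cells could be left out with the call kept (adjusted p = 0.0454, against 0.0795 to 0.215). Because the level is low, these fold changes depend on the 1 added to each value. IFNL1 reached 10 normalised reads in replicates 1 and 3 of parental cells with guide 395 and, at 10.7, in replicate 2 of DDX3Xoe cells with AAVS1. It thus passed the filter only through the group where it was high, and its calls against that group are not separate from that choice.

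Genes that the system acts on or that resemble it were counted in parental cells in the same way. Of 18 proteins reported as ISG15 substrates, 0 genes passed limma's adjusted threshold (1.78% of all genes) and 3 passed with DESeq2 (5.98% of all genes). An unadjusted p under 0.05 was found for 8 (16.9% of all genes), of which 6 were higher, and the median log2 fold change was 0.15. MX1, an antiviral GTPase, had 1194, 910.0 and 1846 normalised reads with guide 395, against 119.5, 185 and 353 with AAVS1, or 2.66 as log2 fold change (limma adjusted p = 0.0686; DESeq2 0.00657). IFIH1, a sensor of double-stranded RNA, was at 2.18 (limma adjusted p = 0.0780; DESeq2 0.0286), and MAPK3, a kinase, at -0.77 (limma adjusted p = 0.0940; DESeq2 0.0344). Some of these substrates, MX1 and IFIH1 among them, are interferon-stimulated genes themselves, and JAK1 and IRF3 are among those in the interferon list too. A list of ISG15 substrates is thus not separate from a list of interferon genes.

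The other ligases and proteases that handle ISG15 were counted in the same comparison. Of 9 in the list 8 were tested, and 0 passed with limma, edgeR or DESeq2 (1.78%, 1.6% and 5.98% of all genes). The median log2 fold change was -0.26, with 3 of 8 above 0. An unadjusted p under 0.05, which 16.9% of all genes had, was found for 2. They were USP16, a ubiquitin protease also reported to remove ISG15, at -0.79 (limma adjusted p = 0.164), and USP5, a protease of free ubiquitin chains, at -0.56 (limma adjusted p = 0.254). Among the 4 other HERC ligases, 0 passed with any tool or had an unadjusted p under 0.05, and the median was 0.15; HERC3 was at 0.87 and HERC4 at 0.23.

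The ubiquitin counterparts give a base for the same 3 steps. UBA1, the main activating enzyme of ubiquitin, had 3691, 4377 and 4438 normalised reads in parental cells with guide 395, against 7709, 8159.5 and 5874 with AAVS1. Its guides did not overlap, and its log2 fold change was -0.79 (limma adjusted p = 0.0870; DESeq2 0.0141), opposite in sign to UBA7. UBE2L3, the relative of UBE2L6 that carries ubiquitin, had 1703, 1435 and 1583 with guide 395, against 1837, 2584 and 1537 with AAVS1, or -0.30 as log2 fold change (limma adjusted p = 0.488). Of 14 ubiquitin genes 0 passed with limma (1.78% of all genes) and 1, UBA1, with DESeq2 (5.98% of all genes). An unadjusted p under 0.05 was found for 3 (16.9% of all genes), all lower, and the median was -0.093. Of 29 tested genes of the SUMO, NEDD8, UFM1 and autophagy conjugation systems and other ubiquitin-like modifiers, 0 passed with limma, edgeR or DESeq2, 1 had an unadjusted p under 0.05 (ATG7, at -0.63) and the median was -0.0062. The subunits of the surface receptor for secreted ISG15, ITGAL and ITGB2, were below the filter, at no more than 2.64 and 5.58 normalised reads in any library.

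**Figure D3:**
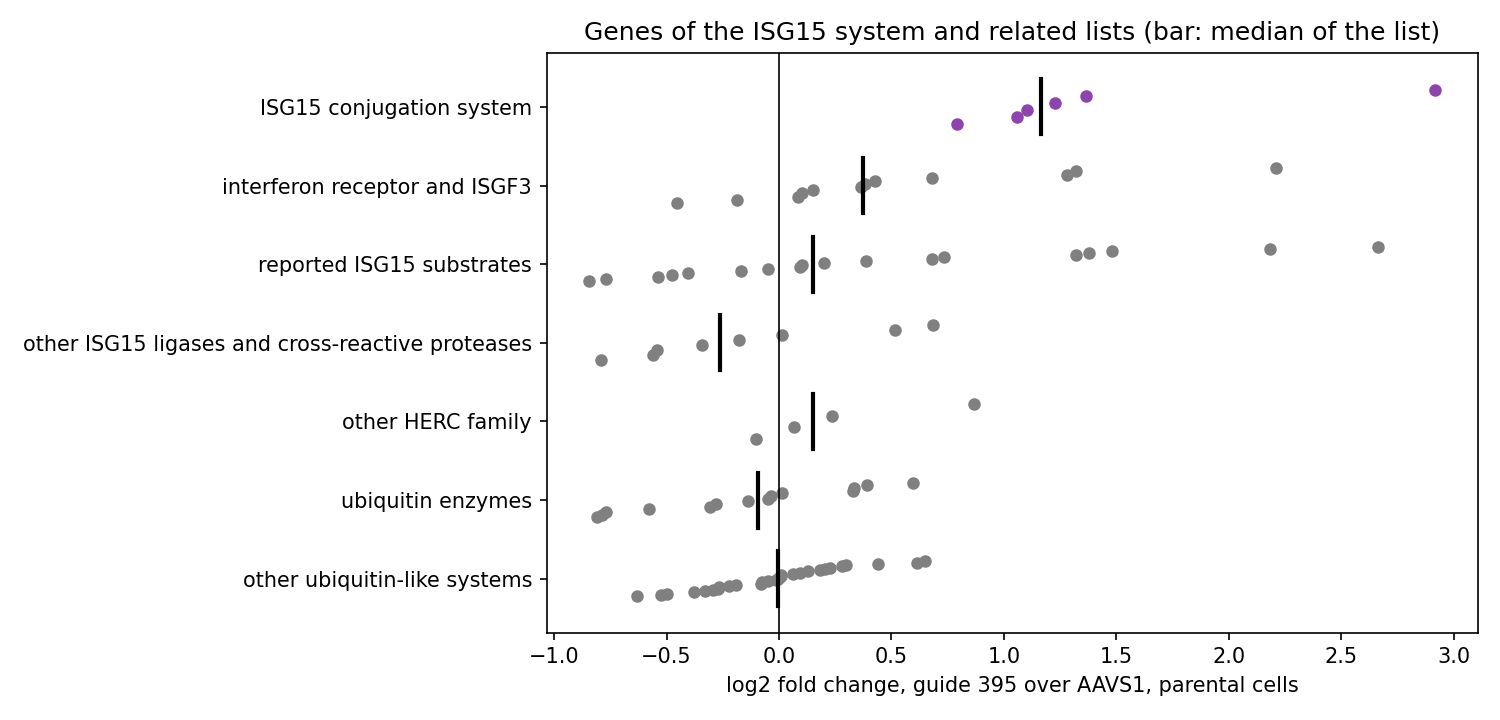
Log2 fold change in parental cells, guide 395 over AAVS1, for each tested gene of the ISG15 system and related lists. Purple points are the 6 members, grey points the genes of other lists, and black bars list medians. The lists of interferon ligands and of cell type markers are not drawn. In parental cells the members' median is 1.16, against 0.37 for interferon receptor and ISGF3 genes, 0.15 for reported substrates and -0.093 for ubiquitin enzymes.

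In parental cells with guide 395 the glial marker NES, an intermediate filament gene of neural progenitors, was lower while the 6 members' estimates lay above 0. It had 151, 214 and 269 normalised reads with guide 395, against 599, 804 and 645 with AAVS1, and fell by 1.71 on the log2 scale (limma adjusted p = 0.00314, and 0.00628 to 0.0255 with 1 library left out). With guide 395 it was higher by 2.10 in DDX3Yoe (limma adjusted p = 0.00338) and by 1.96 in DDX3Xoe cells (limma adjusted p = 0.00295) than in parental cells, on the log2 scale. With 1 library left out, the limma adjusted p was 0.00449 to 0.0467 for DDX3Yoe and 0.00359 to 0.0251 for DDX3Xoe cells. DDX3Xoe cells with guide 395 had 993, 690 and 763 normalised reads of NES, and the first of these libraries goes against its guide label. NES was the 1 glial marker of 6 tested that passed in each of these comparisons (1.78%, 0.204% and 2% of all genes, in the order given). Its part in the members' values was not tested.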

How the data were processed

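Total RNA of 18 samples was sequenced from transcript 3′ ends, per the labels' protocols, so counts do not grow with transcript length. The deposited values are a normalised signal: gene counts that the authors scaled, 1 size factor for each library. This was read from the values, since 100% of them were whole multiples of the column's lowest value above 0 (tolerance 0.01). GRCh38, featureCounts 1.5.1, RSEM 1.3.0, STAR 2.5.2b and limma appear in the submitters' processing notes. Which of these made the values, with which annotation and strand setting, is not given in the sources used here. Unused strand information would merge antisense reads, and reads shared by near-identical copies may be split or lost.

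Groups came from the labels. Symbols came from GENCODE 29 (57446 of 58050 identifiers). Genes with at least 10 normalised reads in at least 3 libraries were kept. limma 3.58.1 (R 4.3.3) was fitted to log2(value + 1) with 6 group means, all 18 libraries, an intensity trend and 12 residual degrees of freedom, and p-values were adjusted by Benjamini-Hochberg over 15228 genes at 0.05. The pseudocount understates changes of low genes. edgeR 4.0.16 and DESeq2 1.42.0 were run on the recovered reads as alternatives, and the limma step was tested on simulated data. The simulated libraries were independent and had the same dispersion for every gene. That test thus checks the code and does not cover the wide, shared swings of the members in these libraries. A gene at 0 may have a level of up to 3 reads in a library, and intervals cover only what the fit sees; reads carried no molecular identifiers used here.

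Same-numbered libraries deviated together in parental cells (correlations of 0.57, 0.20 and 0.28 between guides), and the replicate block is given beside the parental results. In DDX3Yoe cells the correlations were also above 0 but lower than in parental cells (0.075, 0.11 and 0.24). In DDX3Xoe cells that of replicate 2 was below 0 (0.23, -0.028 and 0.30). Between lines with AAVS1, same-numbered libraries also deviated together for DDX3Xoe and parental (0.70, 0.39 and 0.42) and for DDX3Yoe and parental cells (0.21, 0.12 and 0.34). With guide 395 they did so little or not at all. The correlations there were 0.13, -0.032 and 0.19 for DDX3Xoe and parental cells, and -0.29, 0.010 and -0.19 for DDX3Yoe and parental cells. The replicate block nonetheless gives each number the same effect in all lines and guides. The block changed no call among the members outside the parental guide comparison. What the number stands for is not given in the labels.

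Named genes were the 6 members, DDX3X, DDX3Y, the relatives UBA1, UBE2L3 and USP41, the 5 genes most correlated with each member, and from each list the genes called or else the 2 with the smallest p. The members and lists were chosen with earlier results of these data known. FABP7 and IFNB1 were singled out after their values were seen.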

Additional observations from a re-analysis of the deposited data

How the results depend on the processing

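The number of members called was 0 in all 12 comparisons; under the alternatives it was 0 in 237 of 243 recounts, and 737 of 810 single log2 fold changes kept their direction and their side of the threshold. In parental cells the count for guide 395 against AAVS1 was 0 and became 1, HERC5 in each case, with a pseudocount of 5, with the replicate block, with DESeq2 and without both replicate 1 libraries labelled DDX3Xoe, and its range was 0 to 1 with 1 library left out. It was also 1 with the block within each cell line, which, like leaving out the 3 libraries with over 200 normalised FABP7 reads, was chosen after seeing the data. The adjusted p of HERC5 over these alternatives was 0.00882 to 0.259; its 6 values past the threshold were log2 fold changes of 2.70, 2.92, 2.92, 2.92, 3.65 and 2.57, and the cause was not tested. Beside these parental calls, the replicate block changed no call among the members.

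Directions turned for the log2 fold changes below, none of them called. Without the 3 libraries high in FABP7, the DDX3Xoe guide values were -0.12 for ISG15, -0.18 for UBA7, -0.46 for UBE2L6, -0.87 for HERC6 and -0.62 for USP18, the DDX3Xoe minus parental value of USP18 was -1.78, the DDX3Yoe minus parental values were 0.021 for UBE2L6 and -0.058 for USP18, and the DDX3Yoe minus DDX3Xoe values were 0.16 for HERC5 and 1.72 for USP18. Without both replicate 1 libraries labelled DDX3Xoe, the DDX3Xoe guide values were -0.33 for HERC6 and -0.14 for USP18, and USP18 was -1.20 for DDX3Xoe minus parental and 1.25 for DDX3Yoe minus DDX3Xoe. With edgeR and DESeq2, HERC6 was -0.43 and -0.43 in DDX3Xoe cells, ISG15 was -0.29 and -0.30 for DDX3Yoe minus parental, and USP18 was -0.91 and -0.92 for DDX3Xoe minus parental, -0.086 and -0.090 for DDX3Yoe minus parental, and 0.82 and 0.83 for DDX3Yoe minus DDX3Xoe. USP18 was -0.0099 for DDX3Yoe minus parental after quantile normalisation, and 0.041 for DDX3Yoe minus DDX3Xoe with a pseudocount of 5.

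With 1 library left out, the DDX3Xoe guide values ranged from -0.12 to 1.31 for ISG15, -0.18 to 1.24 for UBA7, -0.46 to 0.78 for UBE2L6, -0.87 to 1.14 for HERC6 and -0.62 to 2.22 for USP18. DDX3Xoe minus parental ranged from -1.28 to 0.14 for UBA7, -1.66 to 0.35 for HERC6 and -1.68 to 1.16 for USP18. DDX3Yoe minus parental ranged from -0.89 to 0.65 for ISG15, -0.33 to 0.50 for UBA7, -0.89 to 0.020 for UBE2L6, -0.21 to 0.80 for HERC6 and -0.89 to 0.88 for USP18. DDX3Yoe minus DDX3Xoe ranged from -0.13 to 1.58 for ISG15, -0.0021 to 1.42 for UBA7, -1.23 to 0.16 for HERC5 and -1.11 to 1.72 for USP18. HERC5 had 7 to 333 reads per library, which limits its precision. A pair of libraries against a trio assumes that 1 spread holds for all groups.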
